A study of Homo sapiens with 2 samples.

Results

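The genes described here are grouped as feedback inhibitors of extracellular signal-regulated kinase (ERK) signalling, although not all of them act on ERK alone. They are the dual specificity phosphatases DUSP1, DUSP4, DUSP6, DUSP7 and DUSP10, the Sprouty genes SPRY1, SPRY2 and SPRY4, and the Sprouty-related genes SPRED1 and SPRED2. They were chosen by name, with earlier results of these data known. Of these 10 genes, 7 had a named feature on the array, with 1 feature each, among 14812 genes with a named feature in all. SPRY1, SPRED1 and SPRED2 had none in the annotation used here and were not analysed here. RNA came from MCF-10A, an established cell line of non-tumorigenic breast epithelium that is commonly grown with epidermal growth factor. Cells stably expressing EGFP from the vector alone were compared with cells stably expressing EGFP fused to ARHGAP4, a GTPase-activating protein, with 1 Affymetrix whole-transcript array for each. Both groups therefore express EGFP. The sources used here do not say which promoter drove the construct, or whether each line is a clone or a pool.

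Growth factor receptors activate RAS, which passes the signal through the kinases RAF and MEK to ERK. Active ERK turns on transcription of its own inhibitors, so the RNA of some of them, such as DUSP6, is widely used as a readout of ERK output. The MAP kinase phosphatases remove phosphate from the activation loop of ERK, JNK or p38, while Sprouty and SPRED proteins act further up, between the receptor and RAF. In mammary epithelial cells this circuit limits how long a pulse of epidermal growth factor keeps ERK active.

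Since each group holds 1 array, nothing below can be set against a spread between replicates, and no test was run. Values are the deposited log2 expression values, and differences are EGFP-ARHGAP4 minus EGFP vector, so that 1 is a doubling. A gene is counted as higher or lower at a difference of 0.5 (1.41-fold) either way, which is a size and not a test. A level filter keeps genes whose higher value reaches 4.02, the median gene value. It kept 7685 genes, and all 7 measured members lay above it in both arrays. The feature named ARHGAP4 stood at 4.49 with EGFP alone and 6.68 with EGFP-ARHGAP4, in the direction of the labels. All 5 measured epithelial markers of the 11 listed were past the filter, including KRT5 at 8.33 and 8.34, while KRT14 stood at 9.21 and 6.96 and EPCAM at 6.58 and 7.79. Of markers of other cell types, the measured fibroblast genes DCN and LUM lay below the filter in both arrays, and the immune markers CD14 and CD68 were past it, at 5.84 and 5.48, and at 7.32 and 7.80. In the endothelial list VWF stood at 2.68 and 2.80 and KDR at 3.36 and 5.63. What part these marker differences have in the results below was not tested.

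DUSP1 and DUSP10 were higher in the EGFP-ARHGAP4 array, by 1.46-fold and 1.60-fold, and the other 5 measured members had log2 differences under 0.25 either way as deposited. None was lower by 0.5. Across all measured genes 4.25% were higher and 6.47% lower by at least 0.5, and among genes past the level filter 5.15% were higher and 9.81% lower. The median difference of the 7 members was 0.13, beside -0.03 for all measured genes and -0.10 for genes past the filter; it was 0.22 after quantile normalization and 0.25 after removal of the trend with level, where those of genes past the filter were -0.02 and -0.01. The share of calls that were higher among genes past the filter was 34.4% as deposited, 51.7% after quantile normalization and 52.4% after removal of the trend with level. No member reached a 2-fold difference, which 0.581% of all measured genes did upward and 0.486% downward.

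**Figure D1:**
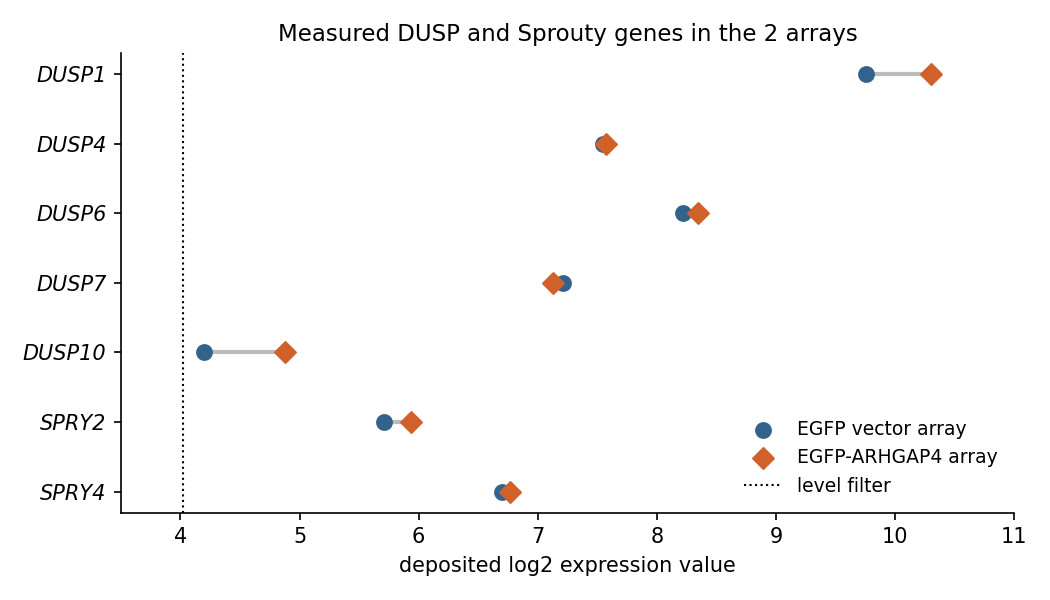
Deposited log2 expression values of the 7 measured members in the EGFP vector array (circles) and the EGFP-ARHGAP4 array (diamonds), with the level filter of 4.02 as a dotted line. The widest gaps are those of DUSP10 (4.20 and 4.88) and DUSP1 (9.75 and 10.30), and DUSP7 is the one gene with the EGFP-ARHGAP4 value on the left; positions of different genes along the axis are not comparable, since each rests on its own probes.

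The promoters of the 2 members past the threshold are printed beside that of DUSP6, an ERK phosphatase that was not, like DUSP4 and DUSP7. They show how the sequence at the start of each gene differs. Each runs from 250 bases before the start of transcription to 50 after it, from RefSeq on GRCh38.p14, all on the minus strand. Capitals mark the cyclic AMP response element (TGACGTCA, the binding site of CREB and ATF factors) and its TGACG core, on either strand. DUSP1 is at chr5:172771146-172771445, the outer start of DUSP10 at chr1:221742040-221742339, its inner start at chr1:221736851-221737150, and DUSP6 at chr12:89352452-89352751.
DUSP1: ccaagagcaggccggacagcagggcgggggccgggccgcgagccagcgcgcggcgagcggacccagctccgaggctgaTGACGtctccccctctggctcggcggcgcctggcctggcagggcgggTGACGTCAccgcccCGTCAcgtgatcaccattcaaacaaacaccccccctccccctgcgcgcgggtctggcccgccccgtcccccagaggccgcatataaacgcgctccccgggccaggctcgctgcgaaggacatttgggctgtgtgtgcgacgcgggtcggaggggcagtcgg
DUSP10, outer start: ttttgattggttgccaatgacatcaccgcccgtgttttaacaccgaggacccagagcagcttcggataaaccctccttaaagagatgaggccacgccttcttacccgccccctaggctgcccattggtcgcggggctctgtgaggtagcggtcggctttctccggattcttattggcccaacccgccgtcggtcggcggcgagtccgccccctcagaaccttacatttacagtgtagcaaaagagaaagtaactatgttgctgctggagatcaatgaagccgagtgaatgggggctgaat
DUSP10, inner start: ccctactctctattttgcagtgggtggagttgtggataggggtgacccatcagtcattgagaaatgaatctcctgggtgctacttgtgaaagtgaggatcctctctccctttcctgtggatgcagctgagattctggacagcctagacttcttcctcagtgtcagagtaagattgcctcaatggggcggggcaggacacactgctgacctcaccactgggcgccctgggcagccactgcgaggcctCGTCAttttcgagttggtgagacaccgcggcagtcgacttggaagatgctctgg
DUSP6: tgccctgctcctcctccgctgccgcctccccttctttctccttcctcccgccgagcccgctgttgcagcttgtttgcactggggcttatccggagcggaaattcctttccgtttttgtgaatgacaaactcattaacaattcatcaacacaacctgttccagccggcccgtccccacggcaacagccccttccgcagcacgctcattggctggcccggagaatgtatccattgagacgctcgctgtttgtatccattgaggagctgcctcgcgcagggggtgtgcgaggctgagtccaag

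The DUSP1 window held the full element 125 bases before the start, a further TGACG core 172 bases before it and another 111 bases before it. The full element itself holds the core on each strand. It was found in 1.85% of all 35116 promoter windows of this length in the RefSeq table, and the core in 24.6%. DUSP10 had none at its outer start and 1 core beginning 4 bases before its inner start. Neither was found at DUSP6. The 6 measured members with an entry in the table have 9 windows there. Of these 9, the DUSP1 window alone held the full element and 4 held a core, 1 each of DUSP1, DUSP10, SPRY2 and SPRY4. SPRY2 and SPRY4 were not past the threshold. The letters CCGGAA are a strict form of the site of ETS factors, among them factors that ERK phosphorylates. They occurred in 17.2% of all windows and, among these 6 genes, at SPRY2 alone, 142 bases before its outermost start. Other forms of the ETS site were not counted, so their absence is not shown. No AP-1 site (TGANTCA, 7.71% of all windows) and no CArG box, the site of serum response factor (1.29%), lay in the windows of these 6 genes. The core lies within the full element by construction, and the other matches did not overlap. DUSP4 has no entry in the table. These are matches of letters in a short window, and the array does not show which start was used. Any relation of the matches to the differences was not tested.

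DUSP1 (MKP-1), an inducible nuclear phosphatase of p38, JNK and ERK, is itself an immediate early gene. It stood at 9.75 with EGFP alone and 10.30 with EGFP-ARHGAP4, a difference of 0.55. Of the 7685 genes past the filter, 4.19% had a higher difference. Among the 86 genes with a mean value within 0.5 of that of DUSP1, the quartiles of the difference were -0.24 and 0.09 and 4.65% had a higher difference. DUSP1 thus lay above the upper quartile of genes at its own level.

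DUSP4 (MKP-2) is the other inducible nuclear phosphatase among the members and acts on ERK and JNK. It stood at 7.55 with EGFP alone and 7.57 with EGFP-ARHGAP4, a difference of 0.02. Unlike DUSP1, it lay inside the quartiles of the 1042 genes at its level, -0.32 and 0.03. Counting beyond the members, the family has 2 further phosphatases of this class. DUSP5, which acts on nuclear ERK, stood at 4.73 and 5.26, a difference of 0.53. It rested on 2 features, with differences of 0.48 and 0.58, so both features were higher but the brighter one alone was under the threshold. DUSP2, known from activated immune cells, stood at 4.91 and 4.92. As deposited, the 4 nuclear inducible phosphatases thus fell into a pair near 0.5 (DUSP1 and DUSP5) and a pair near 0 (DUSP2 and DUSP4). The pairs did not hold relative to the median of neighbouring genes on the chromosome, a reference described below. There DUSP5 was at 0.29 and DUSP4 at 0.30, beside 0.71 for DUSP1 and 0.04 for DUSP2.

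DUSP6 (MKP-3) and DUSP7 are cytoplasmic phosphatases selective for ERK, and DUSP6 is one of the genes most often taken as a readout of ERK activity. DUSP6 stood at 8.22 with EGFP alone and 8.35 with EGFP-ARHGAP4, a difference of 0.13. Of the 590 genes at its level, 18.3% had a higher difference. DUSP7 stood at 7.21 and 7.13, a difference of -0.08, which turned to 0.03 after quantile normalization and after removal of the trend with level. That was the lowest difference of the 7 members, and 40.8% of the 1315 genes at its level had a higher one. DUSP9, the remaining phosphatase of this class and no member, stood at 3.94 and 4.08, on either side of the level filter. As deposited, all 3 ERK-selective phosphatases of the cytoplasm differed by 0.14 or less either way. DUSP6 was at 0.22 after quantile normalization and 0.25 after removal of the trend with level.

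DUSP10 (MKP-5) prefers JNK and p38 to ERK and is found in both nucleus and cytoplasm. It stood at 4.20 with EGFP alone and 4.88 with EGFP-ARHGAP4, a difference of 0.68. This was the highest difference of the members, and 2.62% of genes past the filter had a higher one. Its value with EGFP alone lay 0.18 above the level filter. Among the 1980 genes with a mean value within 0.5 of its own, the quartiles were -0.26 and 0.15 and 2.58% had a higher difference. Of the 2 other phosphatases that prefer JNK and p38, DUSP16 stood at 5.65 and 5.63. DUSP8 lay below the filter, at 3.64 and 3.53. DUSP10 was the one gene of this class past the threshold. Of all 10 MAP kinase phosphatases, 3 were higher by 0.5 (DUSP1, DUSP5 and DUSP10), none was lower, and the median difference was 0.08. With the brightest feature of each gene in place of the mean, DUSP5 was at 0.48 and 2 of the 10 were higher.

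SPRY2 and SPRY4 encode adaptors that bind signalling proteins below receptor tyrosine kinases and hold back RAS and RAF activation. SPRY2 stood at 5.71 with EGFP alone and 5.94 with EGFP-ARHGAP4, a difference of 0.23. Among the 1900 genes at its level, 13.8% had a higher difference. SPRY4 stood at 6.70 and 6.77, a difference of 0.07, and 25.7% of the 1597 genes at its level had a higher one. Both differences were above 0 and neither was past the threshold. After quantile normalization SPRY2 was at 0.33 and SPRY4 at 0.16. SPRY3, which is no member, lay below the filter at 2.80 and 3.11.

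**Figure D2:**
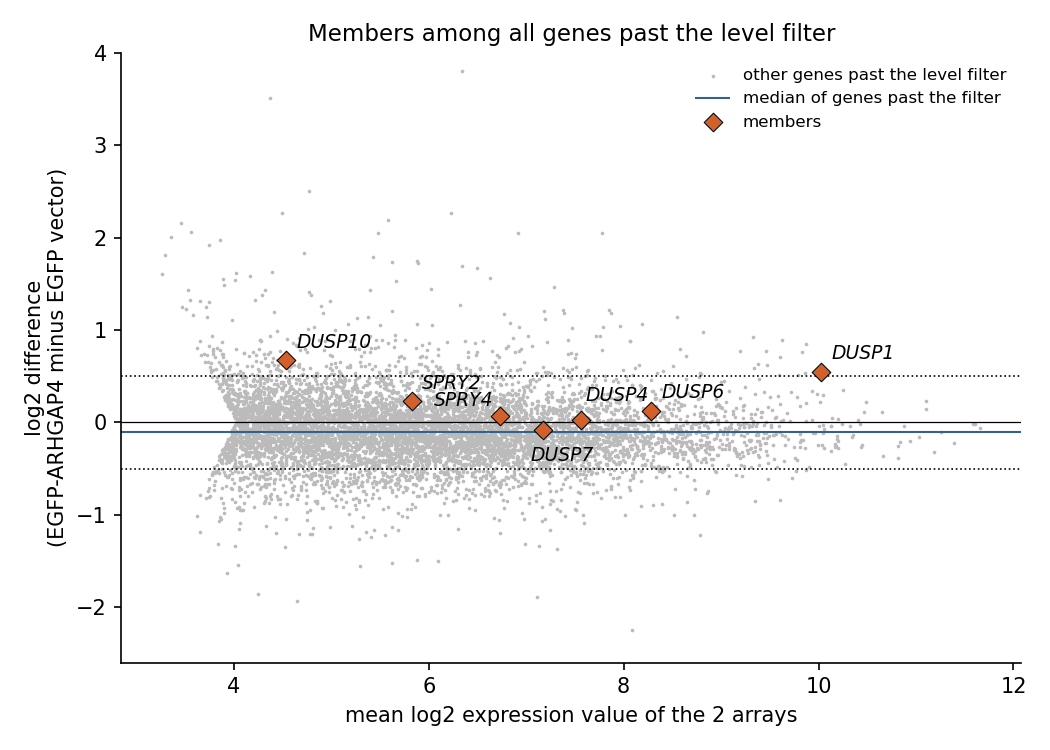
Log2 difference (EGFP-ARHGAP4 minus EGFP vector) against the mean log2 value of the 2 arrays, for the 7685 genes past the level filter (grey points) and the 7 members (diamonds); dotted lines mark 0.5 either way and the blue line the median of -0.10. DUSP10 and DUSP1 lie above the upper dotted line at opposite ends of the range of levels, and all 7 members lie above the blue line, DUSP7 by 0.02.

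All 7 members lay above the median difference of the genes at their own level, by 0.06 (DUSP7) to 0.72 (DUSP10). Such a median has as many genes above it as below by construction. The members lie on 6 chromosomes. Each was set beside the 20 nearest genes past the filter, 10 on either side. This reference was added after seeing the data. The counts against it were not made for all genes, so no share over all genes stands beside them. The medians of these neighbours ran from -0.28 (DUSP6) to -0.10 (SPRY2), beside -0.10 for all genes past the filter. DUSP10 was higher than all 20 of its neighbours, whose differences ran from -0.78 to 0.38. DUSP6 was also higher than all 20, although its own difference was 0.13, while its neighbours ran from -0.75 to -0.02. DUSP1 was higher than 19 of 20, DUSP4 than 18, SPRY2 than 17, SPRY4 than 14 and DUSP7 than 11. Relative to the neighbours' median the members stood between 0.02 (DUSP7) and 0.81 (DUSP10) higher. The 2 members on chromosome 5, DUSP1 and SPRY4, had neighbours with like medians, -0.16 and -0.18, beside differences of their own of 0.55 and 0.07.

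**Figure D3:**
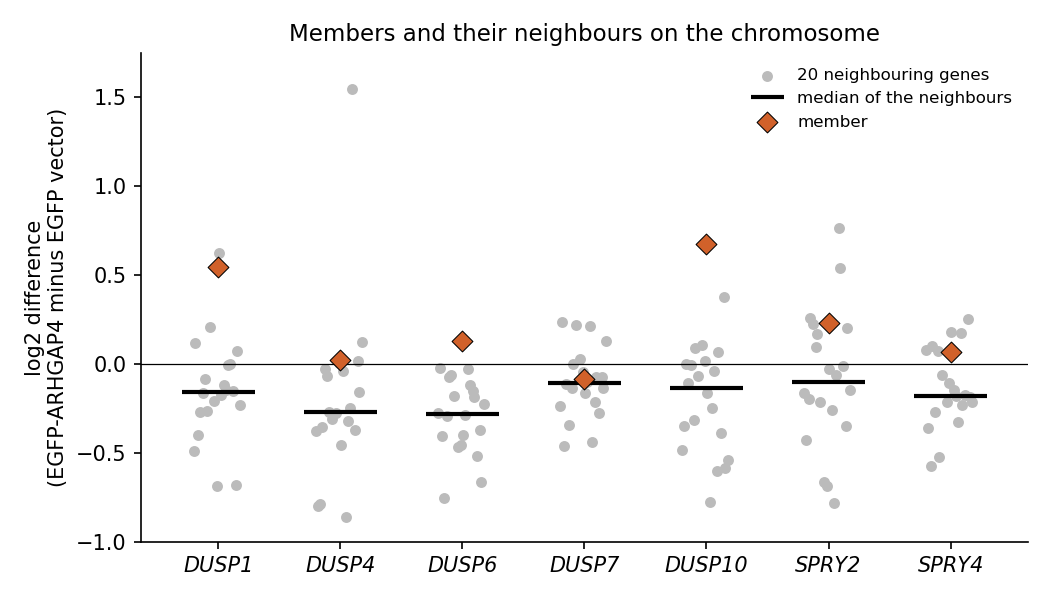
Log2 difference (EGFP-ARHGAP4 minus EGFP vector) of each member (diamond) and of its 20 nearest genes past the level filter on the chromosome (grey points), with the median of the neighbours as a bar. Every diamond lies above its bar, and those of DUSP6 and DUSP10 lie above all their grey points. The neighbours were added as a reference after seeing the data.

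The genes most like DUSP10 over the 2 arrays, by the distance between their pairs of values, were TCP11L2 at 4.19 and 4.85, TMEM143 at 4.20 and 4.92 and EPHA1 at 4.26 and 4.84. Those most like DUSP7 were TRMT1L at 7.21 and 7.13, TERF2 at 7.20 and 7.12 and JUND at 7.21 and 7.10. With 2 arrays, such likeness says only that both values are close.

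The rest of the pathway was described from 6 lists with 83 measured genes in all, of which 7 were higher and 2 lower by 0.5, with a median of -0.02. After quantile normalization, and after removal of the trend with level, 11 were higher and 0 lower, and the medians were 0.04 and 0.05. Of the 83, 68 were past the filter, and 8 of these 68 were higher or lower by 0.5 as deposited. DUSP21, counted as higher in each of these settings, was not past the filter. Over all measured genes, 4.25% were higher and 6.47% lower as deposited. Over all genes past the filter, 5.15% were higher and 9.81% lower as deposited. These shares were 7.16% and 6.69% after quantile normalization, and 7.22% and 6.56% after removal of the trend with level. In the ERK cascade itself, from receptor to kinase, none of the 15 measured genes of 23 listed was past the threshold either way, and the median was -0.08. SHC1, an adaptor below the receptor, stood at 9.44 and 9.73. SOS1, an exchange factor that loads RAS with GTP, stood at 7.09 and 6.73. MAPK3, which encodes ERK1, stood at 5.29 and 5.06, and the adaptor gene GRB2 at 7.37 and 7.18. EGFR, the receptor gene, is added with its value known and differed by 0.16. The 12 measured genes of the JNK and p38 cascades, of 16 listed, held none past the threshold and had a median of -0.03. MAP3K5, a stress-activated kinase at the top of that cascade, was the lowest at -0.47, followed by MAP3K4 at -0.37 and MAPK9, which encodes JNK2, at -0.33. MAPK13, a p38 kinase, was the highest at 0.40, and reached 0.502 after quantile normalization.

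Among 11 measured inhibitors of receptor and RAS signalling outside the members, of 22 listed, 1 was higher and 1 lower by 0.5, with a median of -0.06. ERRFI1 (MIG6), which binds and inhibits the epidermal growth factor receptor and is induced by it, stood at 7.35 and 7.86, a difference of 0.51. Its difference was 0.61 after quantile normalization and 0.63 after removal of the trend with level. RASA2, a GTPase-activating protein for RAS, stood at 5.91 and 5.39, a difference of -0.52, or -0.41 after quantile normalization. NF1, another such protein, stood at 7.19 and 7.57. PEBP1, an inhibitor of RAF, stood at 8.54 and 8.22.

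Of 14 measured atypical dual specificity phosphatases, relatives of the same fold that mostly lack the MAP kinase binding domain, 9 were past the level filter and none of these 9 was past the threshold. The median of the 14 was -0.04. DUSP14 stood at 6.83 and 7.24 and DUSP3 at 5.20 and 5.52. DUSP18 stood at 4.63 and 4.31 and STYXL1, a relative without phosphatase activity, at 5.87 and 5.43. DUSP14 differed by 0.41, or 0.51 after quantile normalization and 0.53 after removal of the trend with level. DUSP21 was the one gene of this list past 0.5, and it lay below the filter in both arrays.

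Of 26 other measured genes of ERK output, of 30 listed, 4 were higher and 1 lower by 0.5, and the median was -0.01. EGR3, an immediate early zinc finger gene, stood at 3.42, below the filter, and 4.23. The cytokine gene LIF stood at 4.10 and 4.78. The AP-1 gene FOS stood at 4.82 and 5.35, and its 2 features differed unequally, by 0.79 and 0.27. KLF4, added after its value was seen, stood at 4.21 and 4.71. Of the 26 genes, 11 had a difference above 0 and 14 below. Among those above were JUN and KLF10 at 0.47 each, HBEGF at 0.24 and JUNB at 0.23. After quantile normalization, and after removal of the trend with level, 6 genes of the list were higher by 0.5, JUN and KLF10 among them. Among those below as deposited were EREG at -0.44, FOSL1 at -0.35, MYC at -0.13 and EGR1 at -0.10. KLF6 stood at 7.79 and 7.24, a difference of -0.55, which was -0.44 after quantile normalization and -0.43 after removal of the trend with level, so that no gene of this list was then lower by 0.5. The median of its neighbours on chromosome 10 was -0.67. For DUSP5, on the same chromosome, the median of its neighbours was 0.23. DUSP5 stood 0.29 above that median, beside 0.30 for DUSP4, 0.71 for DUSP1 and 0.04 for DUSP2 above theirs. What part position has in these values was not tested.

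**Figure D4:**
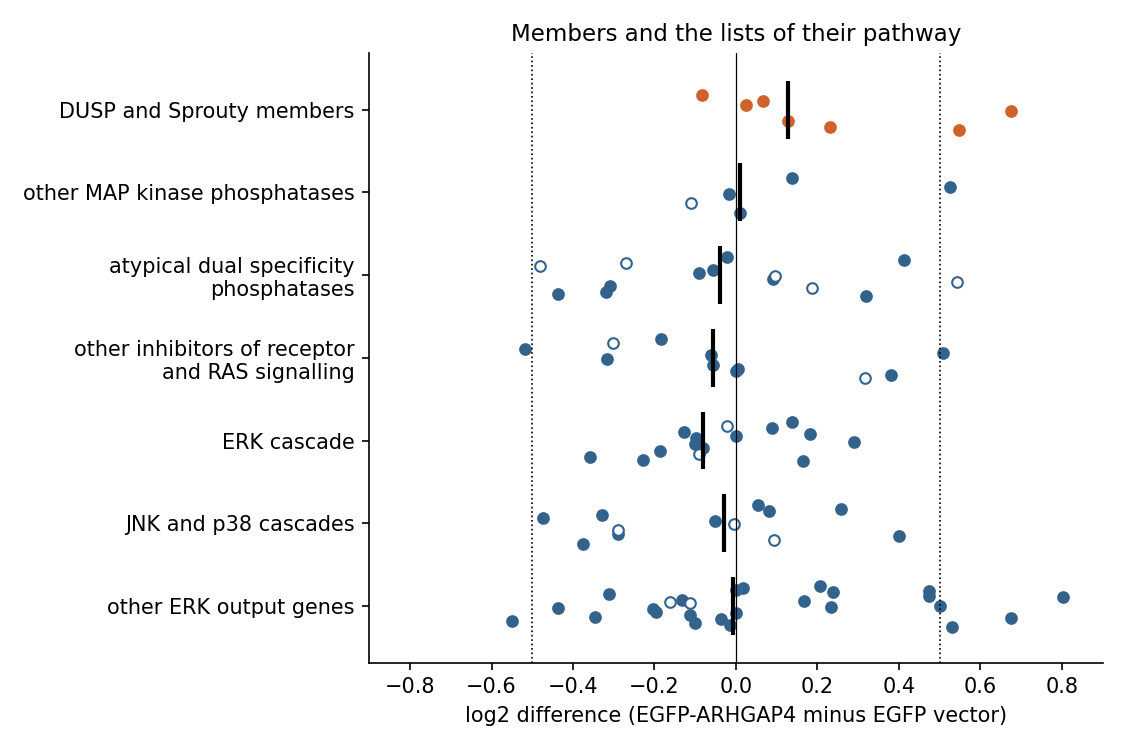
Log2 difference (EGFP-ARHGAP4 minus EGFP vector) of each measured gene of the members and of the 6 pathway lists, spread vertically for legibility; filled points passed the level filter, open points did not, black bars are medians and dotted lines mark 0.5 either way. The members' median is 0.13 and those of the 6 lists run from -0.08 (ERK cascade) to 0.01 (other MAP kinase phosphatases).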

How the data were processed

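RNA of 2 MCF-10A lines was measured on 1 Affymetrix whole-transcript array each and grouped by the genotype in the labels. The authors deposited 1 normalized log2 value for each of 44629 features. Their summarisation, normalization and genome build are unknown (not given in the sources used here). Base 2 was read from the values, whose highest, 12.8, exceeds the natural log of a 16-bit reading, 11.1. The number of arrays limits the precision, and no detection calls were used.

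Features were named from the platform annotation of the array and symbols updated by Entrez identifier, and features of a gene were averaged. The differences, the level filter and the counts were computed as the report describes them. The named genes were all measured members, up to 4 genes past the filter per pathway list with the largest absolute difference, and the 3 genes nearest to the highest and to the lowest member. The members and lists were chosen with earlier results of these data known. No gene was tested, since each group holds 1 array. Neighbours were ordered by the RefSeq gene table of GRCh38.p14. Alternatives were quantile normalization, centring, removal of a loess curve (span 0.3), the feature with the highest level, the filter and the thresholds 0.25 and 1. The neighbours' median as reference was added after seeing the data. Python 3.11.15, numpy 2.4.6, pandas 2.3.3, matplotlib 3.10.9 and statsmodels 0.14.6 were used, and the calculations were tested on simulated data.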

Additional observations from a re-analysis of the deposited data

How the results depend on the processing

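DUSP1 and DUSP10 stayed past 0.5 under quantile normalization, under loess and against the neighbours' median. Under these they lay between 0.57 and 0.71 for DUSP1 and between 0.72 and 0.81 for DUSP10. Centring could change no value, since the median difference of all features, which it subtracts, was 0. It left the median of genes past the filter at -0.10. The choice of feature could also change none, since each member has 1 feature. At a threshold of 1 the number of members higher was 0, and at 0.25 it was 2. The median of the members was 0.22 under quantile normalization, 0.25 under loess and 0.33 against the neighbours. These scalings also moved DUSP4 from 0.02 to 0.14 under each and SPRY4 from 0.07 to 0.16 and 0.18. Against the neighbours, a reference chosen after seeing the data that shifts each gene by its neighbours' median, DUSP6 moved from 0.13 to 0.41 and DUSP4 from 0.02 to 0.30. Of the moves of single members, only these of DUSP6 and DUSP4 against the neighbours were over 0.21. That value is the pooled SD between features of the same gene over 336 genes, a technical spread that says nothing of cultures. DUSP7 was -0.08 as deposited, 0.03 under quantile normalization and loess and 0.02 against the neighbours. Among named genes of the lists, DUSP16 changed sign, from -0.02 to 0.08 under both. No paired analysis was possible because each group has 1 array. Variation between cultures of one line was not measured.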
